A study of Mus musculus with 6 samples.

Results

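The 33 genes described here encode the machinery that copies DNA in S phase. They cover origin recognition and licensing (Orc1, Orc6, Cdc6, Cdt1 and the licensing inhibitor Gmnn), the MCM helicase (Mcm2 to Mcm7), helicase activation (Mcm10, Cdc45, Gins1, Gins2), the sliding clamp and its loader (Pcna, Rfc2, Rfc3, Rfc4, Rfc5), the polymerases and primase (Pola1, Pold1, Pole, Prim1), lagging strand and single-strand work (Fen1, Lig1, Rpa2), nucleotide supply (Rrm1, Rrm2, Tyms, Tk1) and cyclin E (Ccne1, Ccne2). They were chosen by name and function, with earlier results of these data known. All 33 were found among the 18193 genes that the array measures with probe sets naming 1 gene. Together they have 71 of the 34945 such probe sets: 9 have 1 probe set each and 24 have several, up to 5 for Mcm3. Each gene is given by its brightest probe set unless stated otherwise, and 4 of the 33 (Mcm10, Orc1, Cdc6 and Tyms) are dim, with a mean log2 value below 6.19, the 40th percentile of all genes.

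The study measured gene expression in whole brains of neonatal C57BL/6 mice with Affymetrix arrays, to ask how testosterone propionate (TP, an ester of testosterone) acts on the female brain in the period when the brain differentiates by sex. Mice received 1 mg of TP in 20 µL of sesame oil, or the same volume of oil alone (vehicle), into the peritoneum on postnatal day 2, and brains were taken on postnatal day 6. Females had 2 arrays with TP and 2 with vehicle, males 1 with each, and every array carried RNA pooled from 6 mice. The later female array of each treatment is called a replica, and nothing says that it came from a separate pool, so p-values measure only the spread between these arrays, which may be technical. Values are log2 expression values, and in whole brain RNA fewer cells of a type and less RNA per cell cannot be told apart.

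DNA replication is licensed in G1, when the origin recognition complex, Cdc6 and Cdt1 load the MCM helicase onto DNA, and it begins when Cdc45 and the GINS complex turn the loaded helicase into an active one. Behind the helicase, primase and the polymerases copy both strands on the clamp Pcna, which replication factor C loads, while ribonucleotide reductase, thymidylate synthase and thymidine kinase supply the nucleotides. In the first postnatal week of the mouse such genes are active in the dividing cells that the brain still holds, above all the granule cell precursors of the cerebellum and the cells of the subventricular zone, and many of them are textbook targets of the E2F transcription factors.

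A few promoters are shown because they hold the letters of E2F-type motifs and belong to genes whose levels on the male and the female arrays did not overlap. Each run is the 250 bases before an annotated gene start from RefSeq on GRCm38.p6, written 5′ to 3′ on the gene's own strand, with E2F-type letters (TTTGGCGC, TTTCGCGC, TTTCCCGC, TTTGGCGG or TTTCCCGG on either strand) and the CCAAT box, also on either strand, in capitals.
Mcm5, chr8:75109259-75109508, plus strand: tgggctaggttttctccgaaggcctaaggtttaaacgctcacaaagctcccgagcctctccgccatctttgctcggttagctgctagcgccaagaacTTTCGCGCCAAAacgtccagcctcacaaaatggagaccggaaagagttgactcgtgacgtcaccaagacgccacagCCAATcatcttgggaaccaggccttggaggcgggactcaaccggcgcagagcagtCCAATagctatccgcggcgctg
Mcm6, chr1:128359706-128359955, minus strand: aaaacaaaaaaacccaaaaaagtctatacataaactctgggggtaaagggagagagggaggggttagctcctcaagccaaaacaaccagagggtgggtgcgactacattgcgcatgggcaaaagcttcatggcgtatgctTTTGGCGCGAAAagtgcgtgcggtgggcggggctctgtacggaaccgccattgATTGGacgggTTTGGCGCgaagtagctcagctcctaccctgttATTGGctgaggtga
Mcm7, chr5:138171884-138172133, minus strand: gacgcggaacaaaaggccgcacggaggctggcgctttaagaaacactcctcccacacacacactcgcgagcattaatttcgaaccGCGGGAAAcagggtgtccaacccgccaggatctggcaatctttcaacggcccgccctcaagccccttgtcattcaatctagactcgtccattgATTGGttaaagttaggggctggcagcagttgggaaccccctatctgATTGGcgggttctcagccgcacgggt
Rfc3, chr5:151651209-151651458, minus strand: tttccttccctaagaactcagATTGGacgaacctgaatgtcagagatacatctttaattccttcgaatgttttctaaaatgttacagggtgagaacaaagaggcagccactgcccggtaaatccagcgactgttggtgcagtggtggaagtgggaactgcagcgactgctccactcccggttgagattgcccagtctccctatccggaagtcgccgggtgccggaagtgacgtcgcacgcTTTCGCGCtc
In Mcm5 and Mcm6 the letters TTTCGCGC on one strand and TTTGGCGC on the other overlap. Of the 33 genes, 26 had a promoter in the RefSeq table, and 7 of them held E2F-type letters (Cdc6, Mcm5, Mcm6, Mcm7, Orc1, Pola1 and Rfc3). That is 26.9%, beside 3.36% of 27025 genes in the table. RefSeq also gives another Mcm7 promoter, chr5:138171267-138171516, which holds CCAAT but no E2F-type letters. The Mcm7 run shown lies mostly within the annotated gene (chr5:138164583-138172111). CCAAT stood in 16 of the 26 (61.5%, beside 37.5% of all genes), and both kinds stood in 6 (23.1%, beside 1.43%). The median GC content was 56.8% in the promoters of these genes and 52.4% in all promoters. A match describes letters, not a bound site, and a missing match says only that these letters are not in the window.

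The medians of the arrays lay between 5.69 and 5.74. Their upper quartiles were 7.88 to 7.91 on the 4 female arrays and 7.84 on both male arrays. The male arrays thus lay slightly lower among the brighter values, and 72.5% of all genes not dim had a lower estimate in males. Xist, the RNA of the inactive X chromosome, was at 12.61 to 12.83 on the 4 female arrays and at 5.29 on the male vehicle array, but at 10.45 on the male TP array. The Y-linked gene Eif2s3y was at 9.16 and 9.12 on the male vehicle and male TP arrays and at 2.84 to 3.10 on the female ones. The library labelled male TP therefore goes against its label in Xist and with it in Eif2s3y, and the counts and the differences between the sexes that it moves are also given without it. Markers of the labelled tissue were present: the mean log2 level of 6 neuron markers was 12.57 to 12.63 and that of 6 astrocyte markers 10.83 to 10.88 on all 6 arrays.

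The replication genes varied together over the arrays, though by small amounts. On the female vehicle arrays 24 and 25 of the 33 lay above their own mean over the 6 arrays, on the female TP arrays 16 and 19, on the male vehicle array 12 and on the male TP array 5. The shares are 72.7% and 75.8%, beside 56.9% and 60.8% of all genes, on the female vehicle arrays, 36.4% beside 50.3% on the male vehicle array and 15.2% beside 38.5% on the male TP array. Among genes that were not dim the second female vehicle array stood high for most, 71.3% of all genes beside 79.3% of the replication genes, and the first for 55.3% beside 72.4%. On the male vehicle array these shares were 40.3% beside 27.6%, and on the male TP array 29.1% beside 10.3%. The median deviation of the 33 genes from their own means was 0.079 and 0.073 on the female vehicle arrays, -0.001 and 0.019 on the female TP arrays, -0.062 on the male vehicle array and -0.111 on the male TP array. The female vehicle arrays were thus the high end and the male arrays the low end. The male TP array held the lowest value of 18 of the 33 genes (54.5%), beside 27.5% of all genes and 35.7% of all genes that were not dim. Each of the female vehicle arrays held the highest value of 11 of the 33 (33.3%), beside 20.2% and 22.9% of all genes. Among genes that were not dim the shares were 34.5% and 37.9% of the replication genes, beside 18.1% and 28.9% of all genes.

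**Figure D1:**
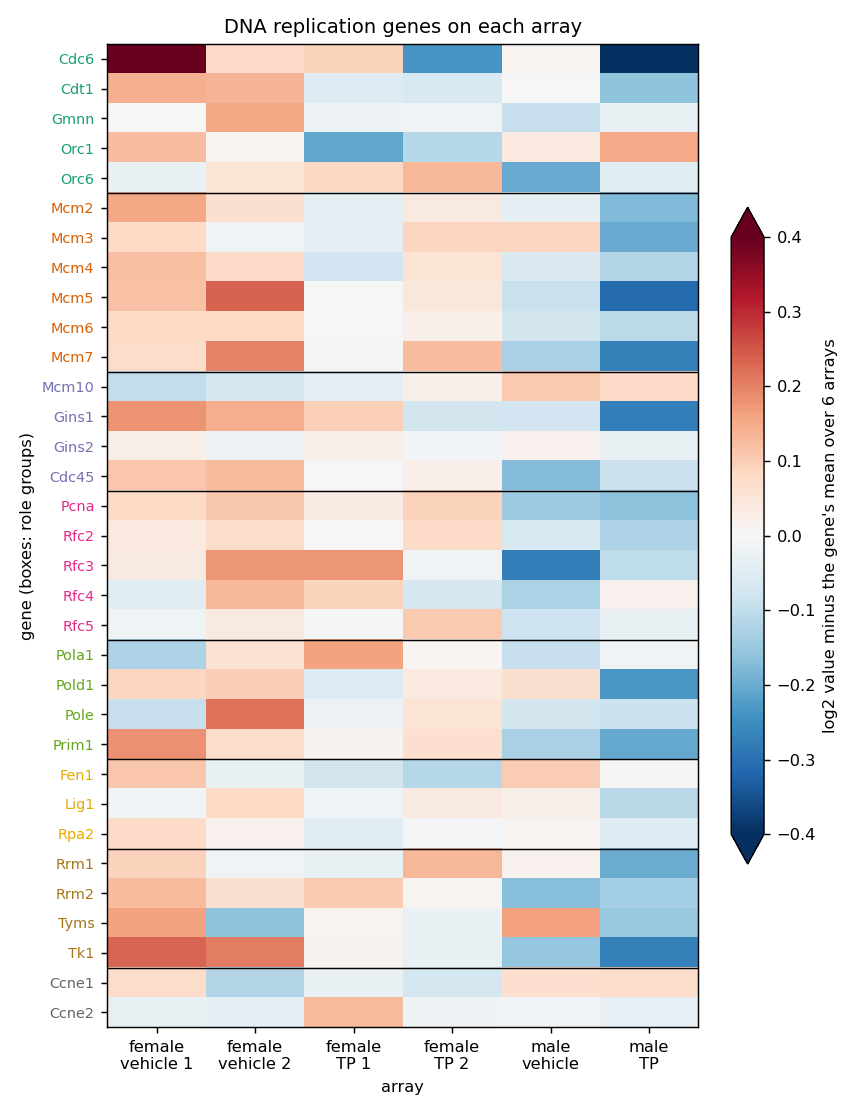
Heat map of the 33 replication genes (rows, in boxes by role) on the 6 arrays (columns), coloured by the log2 value minus the gene's own mean over the 6 arrays, with colours saturating at 0.4 in either direction. Red cells gather on the female vehicle arrays and blue cells on the male TP array, where 28 of 33 genes lie below their mean.

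The spread over arrays was modest for each gene. The SD of the log2 value over the 6 arrays ran from 0.023 for Gins2, a subunit of the GINS complex, to 0.322 for the dim gene Cdc6, with a median of 0.115 beside 0.100 over all genes. The part of the spread that a common rise or fall of all 33 genes carries was 31.5%, beside 1.90% over all genes and 8.74% over all genes not dim, and it was 43.1% among the 29 replication genes that were not dim. It was 16.0% after the arrays were quantile normalized again and 12.5% after each array was centred on its median, beside 2.78% of all genes in the latter. Part of the shared spread thus goes with the overall level of the arrays. Even for genes that vary separately, this share is larger the fewer genes are averaged. The shares of the 33 genes and of all genes are therefore not like for like.

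**Figure D2:**
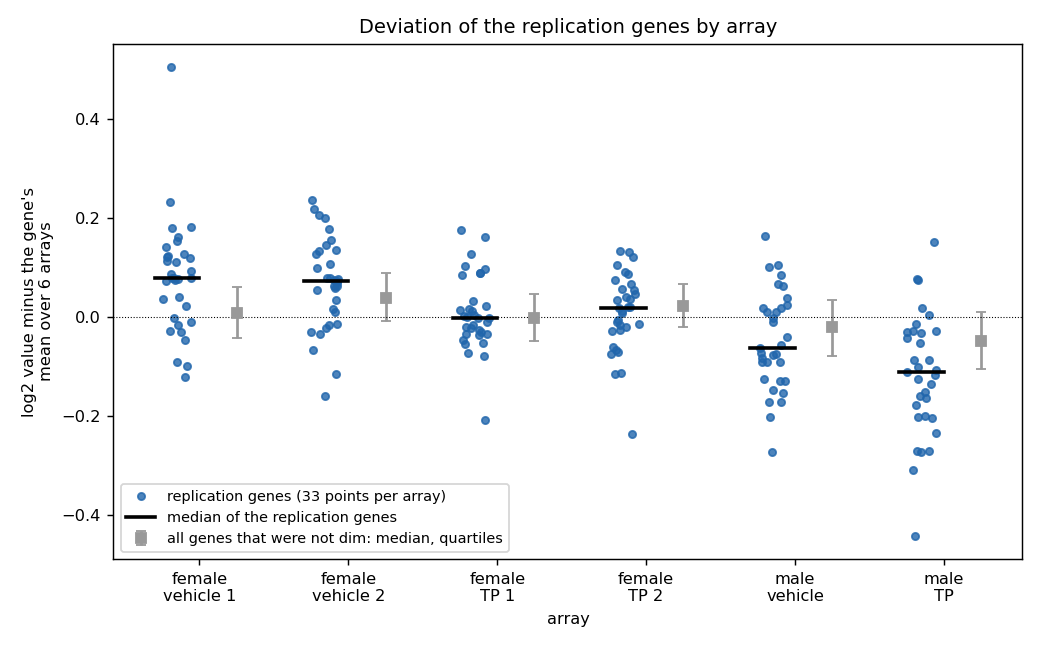
Each blue point is 1 of the 33 replication genes on 1 array (log2 value minus the gene's mean over the 6 arrays), black bars are their medians, and grey squares with bars are the median and quartiles of all genes that were not dim. The medians of the replication genes fall from 0.079 and 0.073 on the female vehicle arrays to -0.111 on the male TP array, with the grey medians moving the same way by less.

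Set by sex, most replication genes stood lower in the male brains, by up to about 20%, and no single gene passed the test. Tk1, Mcm5, Mcm7, Rfc3, Gins1, Prim1, Pcna and Rrm2 had the smallest p-values, and for each of them both male arrays lay below all 4 female arrays. In limma's additive model of sex and treatment over all 6 arrays, 28 of the 33 (84.8%) had a lower level in males, beside 58.5% of all genes. The median difference, male minus female, was -0.13 beside -0.024 over all genes on the log2 scale. Among genes that were not dim, the counts were 27 of 29 (93.1%) beside 72.5%, with medians of -0.13 and -0.051. No member passed an adjusted p under 0.05 (background 0.0165%), and the smallest adjusted p was 0.234. At an unadjusted p under 0.05, 14 (42.4%) were lower beside a background of 8.37%, and 0 were higher beside 5.65%. Both male arrays lay below all 4 female arrays for 15 (45.5%), beside 15.1% of all genes and 21.8% of all genes not dim. They lay above the female arrays for 1, Mcm10, beside 7.04% of all genes.

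Leaving out an array moved these counts. Without the male TP array, 26 of 33 were lower with a median of -0.14, and 8 were lower at an unadjusted p under 0.05 beside 3.97% of all genes. The direction turned for 4 genes without it: Mcm3 (0.053), Gins2 (0.018), Orc1 (-0.028) and Ccne2 (0.023). Without the male vehicle array, 28 were lower with a median of -0.12, and 7 were lower at that p beside 4.84%. Without the male vehicle array the direction turned for 2 genes, Rfc4 and Tyms. For most of the 33 genes each male array therefore stood low by itself. The male vehicle array lay below all 4 female arrays for 16 genes (48.5%), beside 26.2% of all genes and 35.3% of all genes not dim. The male TP array did so for 24 (72.7%), beside 33.7% and 44.5%. With each array centred on its median, which moved the median of all genes from -0.024 to 0.025, 25 of 33 were lower beside 40.6% of all genes, with a median of -0.080.

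In the MCM helicase, the ring that unwinds DNA, all 6 genes had a lower estimate in males, and all 6 were lowest on the male TP array. The median difference was -0.15, and 4 of the 6 had an unadjusted p under 0.05. Of all genes not dim, 72.5% were lower in males and 11.2% were lower at that p. All 6 estimates were also negative after centring (median -0.10) and quantile normalization (median -0.093), beside 40.6% and 50.4% of all genes. Without the male TP array 5 of 6 were negative beside 56.7% of all genes, with a median of -0.16. Mcm5 was at 8.39 and 8.50 on the female vehicle arrays, 8.27 and 8.31 on the female TP arrays, 8.18 on the male vehicle array and 7.96 on the male TP array. Both male arrays were the lowest, with no overlap between the sexes. The difference was -0.30 (SE 0.063, limma adjusted p = 0.243, lower in 2 of 2 male arrays), and -0.27 without the male TP array (adjusted p = 0.574).

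Mcm7, with a promoter among those shown, was at 10.13 and 10.26 on the female vehicle arrays, 10.06 and 10.18 on the female TP arrays, 9.93 on the male vehicle array and 9.79 on the male TP array. The sexes did not overlap, and the gap between the highest male and the lowest female value was about the size of the gaps within the female arrays. The difference was -0.30 (SE 0.068, limma adjusted p = 0.261), and -0.27 without the male TP array (adjusted p = 0.589). With an intensity trend in limma's variance model the adjusted p of Mcm7 was 0.0489, the only replication gene below 0.05 in any alternative run. Mcm3 went against the rest of the helicase in its order: it was at 7.26 and 7.17, then 7.15 and 7.27 in the females, at 7.27 on the male vehicle array and at 6.98 on the male TP array, so only the latter was low. Mcm2, Mcm4 and Mcm6 differed by -0.16, -0.13 and -0.14, with adjusted p of 0.305, 0.400 and 0.334.

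Among the genes that act on the helicase, Gins1, a GINS subunit, was at 6.89 and 6.85 on the female vehicle arrays, 6.80 and 6.63 on the female TP arrays, 6.63 on the male vehicle array and 6.44 on the male TP array. The male vehicle value lay just under the lowest female value. The difference was -0.26 (SE 0.068, limma adjusted p = 0.261), and -0.24 without the male TP array. Gins2, of the same complex, lay between 7.23 and 7.28 on every array and gave no order of the sexes (difference -0.008, SE 0.057). Cdc45, which joins GINS at the helicase, was at 6.51 and 6.53 on the female vehicle arrays, 6.40 and 6.42 on the female TP arrays, 6.23 on the male vehicle array and 6.32 on the male TP array, with a difference of -0.19 (SE 0.065, limma adjusted p = 0.287), and -0.29 without the male TP array (SE 0.085, adjusted p = 0.518). Mcm10, which also helps to start the helicase and is dim, stood the other way, with 6.09 to 6.20 in the females and 6.29 and 6.26 in the male vehicle and male TP brains (difference 0.14, SE 0.059, limma adjusted p = 0.36, and 0.19 without the male TP array).

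All 5 genes of the clamp and clamp loader had a lower estimate in males, beside 72.5% of all genes not dim, with a median of -0.14. This held for 5 of 5 after centring, after quantile normalization and without the male TP array. Without the male vehicle array the direction of Rfc4 turned. Pcna, the sliding clamp, was at 11.82 and 11.85 on the female vehicle arrays, 11.78 and 11.84 on the female TP arrays, 11.60 on the male vehicle array and 11.58 on the male TP array. Its 4 female values lay between 11.78 and 11.85, and both male values lay apart from them. The difference was -0.23 (SE 0.056, limma adjusted p = 0.261), and -0.24 without the male TP array. Rfc3, a subunit of the clamp loader, was at 7.97 and 8.11, then 8.11 and 7.92 in the females, 7.66 on the male vehicle array and 7.84 on the male TP array. Here the male vehicle array was the lowest. The difference was -0.28 (SE 0.085, limma adjusted p = 0.270), -0.38 without the male TP array and -0.18 without the male vehicle array. The other loader subunits, Rfc2, Rfc4 and Rfc5, differed by -0.14, -0.081 and -0.085, and by -0.12, -0.17 and -0.092 without the male TP array.

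The 4 genes of the polymerases and primase had a median difference of -0.12, and all 4 estimates were negative under the main scaling, after centring and after quantile normalization. Under the main scaling 72.5% of all genes not dim were lower in males. Prim1, the catalytic subunit of primase, was at 9.13 and 9.02 on the female vehicle arrays, 8.96 and 9.02 on the female TP arrays, 8.82 on the male vehicle array and 8.74 on the male TP array, with no overlap between the sexes. The difference was -0.25 (SE 0.061, limma adjusted p = 0.261), and -0.26 without the male TP array. The polymerase subunits Pola1, which is X-linked, Pold1 and Pole differed by -0.079, -0.13 and -0.12, with overlapping values. Without the male TP array they differed by -0.060, -0.030 and -0.14, so the estimate of Pold1 rests largely on that array.

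In nucleotide supply, Tk1, the thymidine kinase of the salvage pathway, gave the smallest p of all 33 genes. It was at 7.11 and 7.09 on the female vehicle arrays, 6.89 and 6.85 on the female TP arrays, 6.73 on the male vehicle array and 6.61 on the male TP array. The 4 groups did not overlap, with female vehicle highest and male TP lowest. The male level was 0.802 times the female one (log2 difference -0.32, SE 0.059, limma adjusted p = 0.234), and the difference was -0.37 without the male TP array (adjusted p = 0.475). Rrm2, the small subunit of ribonucleotide reductase, was at 9.46 and 9.40, then 9.44 and 9.35 in the females, 9.16 on the male vehicle array and 9.20 on the male TP array. The female groups overlapped and the male arrays lay below them (difference -0.23, SE 0.062, limma adjusted p = 0.264, and -0.27 without the male TP array). Tyms, thymidylate synthase, is dim and showed no order of the sexes, with 4.72, 4.40, 4.57 and 4.54 in the females, 4.73 on the male vehicle array and 4.41 on the male TP array (difference 0.009, SE 0.108, and 0.16 without the male TP array).

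The origin and licensing genes were mixed. Orc6, a subunit of the origin recognition complex, was at 8.65 and 8.73 on the female vehicle arrays, 8.76 and 8.81 on the female TP arrays, 8.48 on the male vehicle array and 8.64 on the male TP array. Both male values were below the females, that of male TP by little (difference -0.18, SE 0.060, limma adjusted p = 0.281, and -0.21 without the male TP array). Cdc6, which loads the helicase, varied most and its sexes overlapped (difference -0.32, SE 0.135, limma adjusted p = 0.347, and -0.28 without the male TP array). Orc1, the largest subunit of the same complex, had an estimate of 0.14 (SE 0.090) that rests on the male TP array, since without it the direction turned (-0.028, SE 0.098). Gmnn, geminin, had an estimate of -0.089 (SE 0.071), and of -0.17 without that array. The lagging strand genes and cyclin E had differences between -0.066 and 0.11. Fen1, the flap nuclease, was at 9.28, 9.14, 9.10 and 9.06 in the females, 9.27 on the male vehicle array and 9.18 on the male TP array. Ccne1, cyclin E1, was at 7.32, 7.13, 7.22 and 7.18 in the females and 7.31 and 7.32 in the male vehicle and male TP brains. The males lay within or at the upper edge of the female range for both (differences 0.078 and 0.11, SE 0.064 and 0.070).

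**Figure D3:**
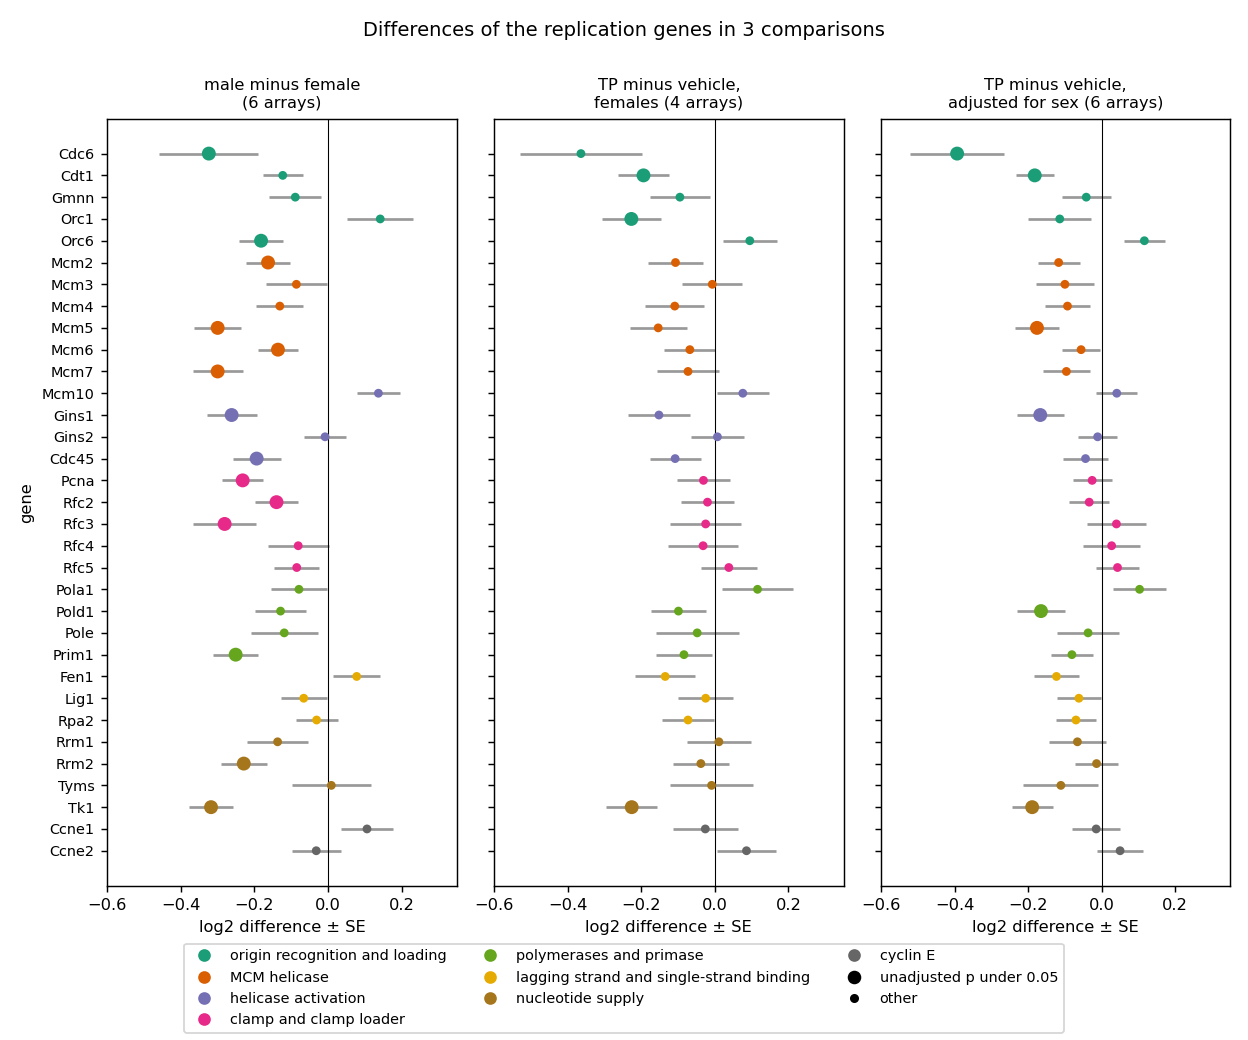
Log2 differences with their SE (bars) for the 33 replication genes in 3 comparisons: male minus female over 6 arrays, TP minus vehicle over the 4 female arrays, and TP minus vehicle adjusted for sex over 6 arrays. Large points have an unadjusted p under 0.05 (14, 3 and 6 genes, all of them below 0), and none of the 33 has an adjusted p under 0.05.

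Most genes are measured by more than 1 probe set, and for the difference between the sexes these largely went the same way. Of the 24 genes with several probe sets, 7 (Cdc45, Cdt1, Mcm10, Mcm5, Mcm6, Orc1 and Pola1) had probe sets of opposite sign, and in each of them a dim probe set was involved: among probe sets that were not dim, 0 genes had opposite signs. Of the 49 probe sets that were not dim, 45 were lower in males, with a median of -0.14. All 4 Mcm7 probe sets were lower, with differences of -0.30, -0.29, -0.17 and -0.12. Probe sets of Rfc3 differed by -0.28 and -0.21, and those of Rrm2 by -0.23, -0.15 and -0.089. The second probe set of Prim1 gave a smaller difference than its brightest one, -0.078 (SE 0.082) beside -0.25. Cdt1, the licensing factor, had a larger difference in its less bright probe set that was not dim (-0.35, SE 0.073, limma adjusted p = 0.296 over all single-gene probe sets) than in its brightest one (-0.12, SE 0.060). For Mcm5 the brightest probe set is of a kind that can cross-hybridize (its name ends in _x_at), and the next one, which is dim, gave -0.22 (SE 0.104). That next probe set was at 6.30, 6.07, 6.16 and 6.11 in the females. It was at 6.14 on the male vehicle array, within the female range, and at 5.73 on the male TP array, so only the latter was low.

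In the female brains, TP came with slightly lower values of most replication genes, and no single gene passed the test. Tk1, Orc1 and Cdt1 were the 3 with an unadjusted p under 0.05, and all 3 were lower with TP. Of the 33 genes 26 (78.8%) had a negative difference beside 59.3% of all genes, with a median of -0.048 beside -0.024. With each array centred on its median the split was 17 of 33, with a median of -0.007, beside 43.1% of all genes negative with a median of 0.017, and with quantile normalization it was 23 of 33 beside 50.9%. No member passed an adjusted p under 0.05 in limma (background 0.0275%), and the smallest adjusted p was 0.633. The 3 genes at an unadjusted p under 0.05 are 9.09% of the 33, beside a background of 5.29% lower, and 0 were higher beside 2.16%. The TP and vehicle arrays did not overlap for 14 genes that were lower with TP (background 24.7%) and 3 that were higher (background 13.4%).

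The count of 3 rested on single arrays: it was 1 without the first vehicle array, 1 without the first TP array and 0 without the second TP array. Tk1, with the values given above, was at 7.11 and 7.09 with vehicle and at 6.89 and 6.85 with TP, a gap that is wide beside either pair. The difference was -0.23 (SE 0.070, limma adjusted p = 0.633). Cdt1 was at 8.28 and 8.27 with vehicle and at 8.08 and 8.08 with TP, so the groups were tight and apart (difference -0.19, SE 0.069, limma adjusted p = 0.638). Its other probe set that was not dim was at 6.83 and 6.81 with vehicle and at 6.64 and 6.83 with TP, where the groups overlapped (difference -0.087, SE 0.091). Orc1 was at 6.06 and 5.95 with vehicle and at 5.73 and 5.82 with TP (difference -0.23, SE 0.080, limma adjusted p = 0.638), but it is dim, and the mean of its probe sets gave -0.093. Cdc6 was at 5.56 and 5.14 with vehicle and 5.15 and 4.83 with TP, where 1 vehicle array stood high and the groups overlapped (difference -0.36, SE 0.166, limma adjusted p = 0.692, and -0.15 without the first vehicle array).

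By role, the origin and licensing genes had the lowest median in treated females, -0.19, with 4 of 5 negative, a count that held after centring and quantile normalization. Orc6 was the exception, with a difference of 0.095. All 6 MCM genes had negative differences, from -0.007 for Mcm3 to -0.15 for Mcm5 (SE 0.078, limma adjusted p = 0.706), and 5 of 6 were negative after centring and after quantile normalization. The clamp and clamp loader had differences between -0.032 and 0.038; 4 of 5 were negative, and 0 of 5 after centring. Pcna had a difference of -0.031 (SE 0.071) between treated and vehicle females. The lagging strand genes were 3 of 3 negative with a median of -0.073, and 2 of 3 after centring. Probe sets of 1 gene disagreed more here than between the sexes: 11 of 24 genes had opposite signs, and 6 of them (Ccne1, Mcm2, Mcm3, Mcm4, Rpa2 and Rrm1) among probe sets that were not dim. The second probe set of Mcm4, whose name ends in _x_at, was higher with TP, by 0.25 (SE 0.103) in females and 0.27 (SE 0.079) adjusted for sex. Its brightest one gave -0.11 and -0.093.

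Over both sexes, with sex as a term, the treatment difference was of the same small size. Of the 33 genes 26 were lower with TP beside 62.1% of all genes, with a median of -0.062 beside -0.029. The split was 18 of 33 after centring, with a median of -0.014, beside 42.2% of all genes and a median of 0.018, and 22 of 33 after quantile normalization beside 52.0%. In limma 0 passed an adjusted p under 0.05 (background 0%), with a smallest adjusted p of 0.340 for Cdt1. At an unadjusted p under 0.05, 6 genes (18.2%) were lower, beside a background of 8.45%, and 0 were higher beside 3.80%. These were Cdt1, Tk1, Cdc6, Mcm5, Gins1 and Pold1. Without the male TP array or without the male vehicle array the treatment difference rests on the females alone, and 3 genes (Tk1, Orc1 and Cdt1) were lower at that p. All 3 TP arrays lay below all 3 vehicle arrays for 3 genes (Cdt1, Pold1 and Rpa2), beside 10.3% of all genes, and above them for 0 beside 4.69%.

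Cdt1 was lower with TP in either sex, with 8.13 on the male vehicle array and 7.98 on the male TP array beside the female values above (difference adjusted for sex -0.18, SE 0.052, limma adjusted p = 0.340). Its other probe set that was not dim gave a smaller difference, -0.073 (SE 0.069). Tk1 differed by -0.19 (SE 0.056, adjusted p = 0.342), Cdc6 by -0.39 (SE 0.127, adjusted p = 0.353), Mcm5 by -0.18 (SE 0.059, adjusted p = 0.361) and Gins1 by -0.17 (SE 0.064, adjusted p = 0.380). Pold1, the catalytic subunit of polymerase delta, was at 7.03 and 7.04 on the female vehicle arrays, 6.89 and 6.98 on the female TP arrays, 7.004 on the male vehicle array and 6.71 on the male TP array. The vehicle arrays were all higher than the TP arrays, by the most in males (difference -0.17, SE 0.065, limma adjusted p = 0.392, and -0.099 in the females alone). Both of its probe sets gave negative differences, -0.17 and -0.20.

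In males, with 1 array of each treatment and no test, 23 of the 33 genes (69.7%) were lower on the TP array than on the vehicle array beside 59.6% of all genes, with a median difference of -0.061 beside -0.034. Past a 1.2-fold difference, 4 genes were lower (background 7.67%) and 0 higher (background 4.22%). They were Cdc6, with 5.07 on the vehicle and 4.62 on the TP array (difference -0.45), Tyms, with 4.73 and 4.41 (-0.32), Pold1, with 7.004 and 6.71 (-0.30), and Mcm3, the helicase subunit, with 7.27 and 6.98 (-0.29). Cdc6 and Tyms are dim. Past 1.1-fold there were 10 lower (background 23.8%) and 3 higher (background 13.6%), and past 1.5-fold 0 lower (background 0.286%) and 0 higher (background 0.148%). All 6 MCM genes were lower on the male TP array, with a median of -0.14, while 2 of 5 origin genes and 2 of 5 clamp genes were. These values rest on the array whose Xist level goes against its label.

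Whether TP acted differently in the sexes was not resolved for any of the 33 genes. In limma's 4-group model, which assumes that the single male arrays vary like the female ones, 0 passed an adjusted p under 0.05 (background 0.011%), and all 33 adjusted p-values were 1.00. At an unadjusted p under 0.05, 1 gene was lower (Orc1, background 1.98%) and 0 were higher (background 2.44%). Orc1 was at 5.98 on the male vehicle array and 6.09 on the male TP array, so TP went with a higher value there and with a lower one in females (female minus male effect -0.34, SE 0.139). The mean of the Orc1 probe sets turned this estimate to 0.031. Mcm3 had an estimate of 0.28 (SE 0.141) and Cdc45 one of -0.19 (SE 0.120). The estimate was negative for 18 of the 33 beside 47.9% of all genes, and the median was -0.012 beside 0.007. All of these estimates use the male TP array, whose Xist level goes against its label.

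Of 47 further genes of DNA replication and its control that are not among the 33, 45 were measured, and they followed a like pattern. In the comparison of sexes 36 of 45 were lower in males with a median of -0.12, 14 (31.1%) were lower at an unadjusted p under 0.05, and 0 were higher. Of all genes 58.5% were lower, 8.37% at that p. After centring 31 of 45 were lower, with 6 at that p (all genes 40.6% and 3.56%), and without the male TP array 36 of 45, with 8 (all genes 56.7% and 3.97%). Uhrf1, which brings the maintenance DNA methyltransferase to replicated DNA, was at 7.63 and 7.69 on the female vehicle arrays, 7.38 and 7.47 on the female TP arrays, 7.21 on the male vehicle array and 7.11 on the male TP array. Its order of the groups was that of Tk1 (male minus female -0.38, SE 0.065, limma adjusted p = 0.234). Rpa3, a subunit of the single-strand binding protein, differed by -0.27, Pole2, of polymerase epsilon, by -0.28, and cyclin A2 (Ccna2) by -0.24 (-0.16 without the male TP array). With TP in females 36 of 45 were lower with a median of -0.073, 27 of 45 after centring (all genes 59.3% and 43.1%). At an unadjusted p under 0.05, 6 were lower beside 5.29% of all genes, among them Timeless (-0.24), which steadies the fork, Uhrf1 (-0.24), Gins3 (-0.27) and Mcm9 (-0.25). No gene of this list had an adjusted p under 0.05 in either comparison.

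Genes listed as markers of dividing cells and of cerebellar cells moved with the difference between the sexes. All 9 measured genes of mitosis were lower in males, with a median of -0.25 and 6 at an unadjusted p under 0.05, and 9 of 9 after centring and quantile normalization. Of all genes 8.37%, and of all genes not dim 11.2%, were lower at that p. Without the male TP array 8 of 9 were lower, with a median of -0.28 and 6 at that p. Their mean log2 level was 7.60 to 7.63 on the female arrays, 7.39 on the male vehicle array and 7.34 on the male TP array. Cenpe, a kinetochore motor, differed by -0.45 (SE 0.060, limma adjusted p = 0.234), Ccnb2 by -0.40, Cdk1 by -0.34 and Birc5 by -0.28. All 10 markers of cerebellar granule precursors, 4 of them dim, were lower as well, with a median of -0.19 and 5 at that p, and 9 of 10 without the male TP array, with a median of -0.21 and 4 at that p. Their mean level was 8.10 to 8.20 in the females, 8.01 on the male vehicle array and 7.89 on the male TP array. Among them Neurod1 differed by -0.36 and Pax6 by -0.35. Atoh1 and Gli1, both dim, overlapped between the sexes. Atoh1 was at 5.55 to 6.07 in the females, 5.85 on the male vehicle array and 5.53 on the male TP array. Gli1 was at 5.29 to 5.75, 5.57 and 5.12 in the same order. Whether the genes of this list mark only granule precursors in whole brain RNA was not tested. Of 4 measured Purkinje cell markers, which mark neurons that do not divide, 3 were lower at that p, and the mean level was 9.46 to 9.52 in the females, 9.29 on the male vehicle array and 9.25 on the male TP array. Pcp2 differed by -0.52, Car8 by -0.27 and Calb1 by -0.22, while Pvalb was the other way with 0.081 (SE 0.074). Without the male TP array 3 were lower at that p as well, with -0.37 for Pcp2, -0.38 for Car8 and -0.27 for Calb1. The part of the granule precursor, Purkinje and mitosis markers in the difference of the replication genes was not tested.

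**Figure D4:**
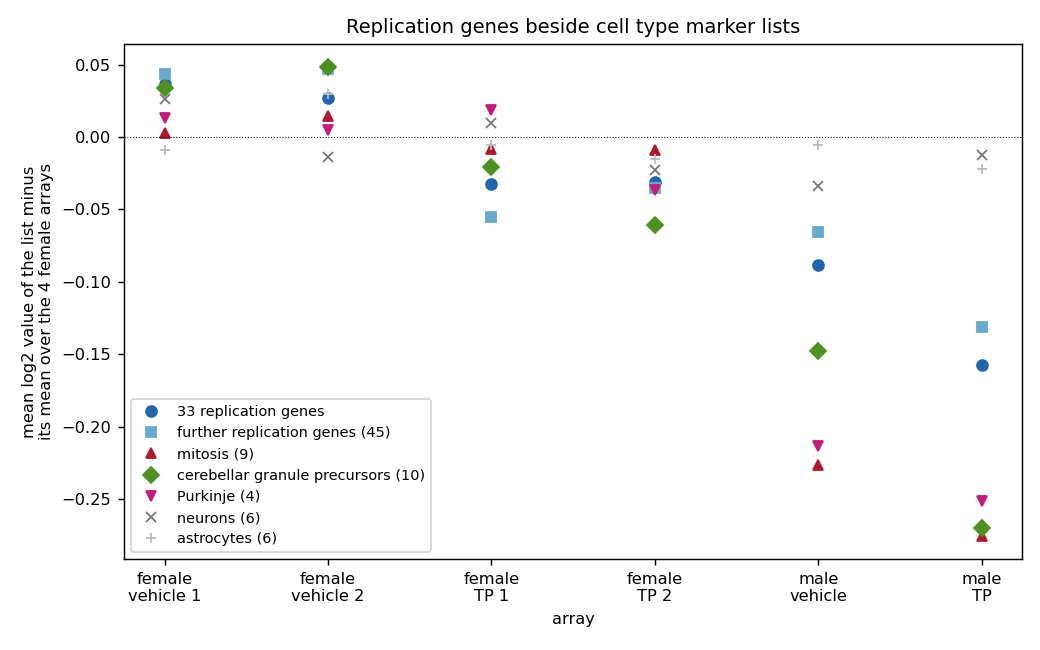
Mean log2 value of the 33 replication genes and of 6 other gene lists on each of the 6 arrays, minus the mean of that list over the 4 female arrays. The lists of mitosis, granule precursors, Purkinje cells and both replication lists lie below 0 on the male arrays, while neurons and astrocytes lie close to 0.

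For the other lists the differences between the sexes were as follows. Of 8 measured markers of the ventricular zone and neural stem cells 6 were lower in males with a median of -0.092, 1 of them at an unadjusted p under 0.05 and 1 higher at that p. Oligodendrocyte precursor markers were 3 of 6 lower with a median of 0.006, and neuron markers 5 of 6 lower with a median of -0.025 (2 of 6 after centring). Astrocyte markers were 5 of 6 lower with a median of -0.048 (3 of 6 after centring), endothelial markers 3 of 5 with a median of -0.043, and erythroid markers 1 of 4 with a median of 0.093. When the male TP array was left out, 0 of 6 oligodendrocyte precursor markers were lower (median 0.072), 3 of 6 neuron markers, 2 of 5 endothelial markers (median 0.081) and 0 of 4 erythroid markers. Myeloid and bone marrow genes, 7 of 8 dim, stood higher in males for 7 of 8, with a median of 0.30 and 5 at an unadjusted p under 0.05. The part of these markers in the difference was not tested. Genes of quiescence and arrest such as the inhibitor Cdkn1c were 6 of 6 lower, with a median of -0.075 and 0 at that p. With TP in females, mitosis genes were 6 of 9 lower (median -0.041, 1 higher at an unadjusted p under 0.05 and 0 lower), granule precursor markers 6 of 10 (median -0.043), of which Atoh1 (-0.36) and Gli1 (-0.28) were lower at that p, and ventricular zone markers 2 of 8 (median 0.078), of which Dlx2 (-0.19) was. Endothelial markers had a lower median than the replication genes, with 5 of 5 lower in treated females (median -0.12, 1 at that p) and 5 of 5 adjusted for sex (median -0.15, 3 at that p). Myeloid genes were 6 of 8 lower in treated females (median -0.086, 2 at that p) and 7 of 8 adjusted for sex (median -0.15, 4 at that p). After centring the endothelial medians were -0.073 and -0.10 and the myeloid ones -0.045 and -0.10. At that p 5.29% of all genes were lower in treated females and 8.45% adjusted for sex, and the part of these markers in the TP difference was not tested.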

How the data were processed

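Gene expression was measured on 6 arrays, each with RNA pooled from 6 mice, grouped by the sex and treatment in the labels. The values are the log2 expression values of 45101 probe sets deposited by the authors, who made them with RMA (background correction, normalization between arrays and summary of probes), per the submitters' processing notes (version not given in the sources used here). Precision is limited by the small number of arrays, since array values have no read depth.

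Probe sets were named through the platform annotation: 34945 had 1 gene, 932 several (not used, 1 of them naming Tyms) and 64 were controls. Each of 18193 genes was represented by its brightest probe set on average over the arrays. The test was limma's (version 3.58.1, R 4.3.3; two-sided lmFit and eBayes without trend), with Benjamini-Hochberg adjustment over all genes, after checking the script on simulated data. The fits covered the 4 female arrays, an additive model of sex and treatment on 6 arrays, and a model of 4 groups. Python 3.11.15, pandas 2.3.3, numpy 2.4.6 and matplotlib 3.10.9 made summaries and figures. Promoters came from RefSeq (GRCm38.p6).

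The 33 genes and all other lists were chosen with earlier results of these data known. Genes given on every array were those with the smallest p in each comparison (8 by sex, 5 for each treatment fit, 3 for the difference of effects), the 3 largest differences in males and the brightest gene of each role; at most 4 were named from any other list. Alternatives were all probe sets, their mean, no dim genes, quantile normalization, median centring, an intensity trend, a replicate block, arrays left out, single-treatment fits and other folds, and, chosen after seeing the data, no probe sets ending in _x_at. Original and replica arrays differed (at most 215 equal values in any pair of arrays) and were counted separately.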

Additional observations from a re-analysis of the deposited data

How the results depend on the processing

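Of 563 alternative values, 1 reversed and 57 of the counts and medians moved beyond the tolerance. The reversal was Orc1 in the difference of the TP effects, 0.031 by the mean of its probe sets. By sex, members lower at an unadjusted p under 0.05 numbered 20 of 71 probe sets with all probe sets, 8 after centring, 9 with the replicate block, 4 with vehicle arrays alone and 6 with TP arrays alone; 1 was higher with all probe sets, quantile normalization, centring and TP arrays alone. The median was -0.074 with quantile normalization, -0.080 after centring and -0.109 with the replicate block, and 1 gene (Mcm7, -0.300) had an adjusted p under 0.05 with the intensity trend. With dim genes left out the smallest adjusted p was 0.0588 (Tk1). For TP in females, 1 was higher with all probe sets, and centring gave 1 lower at that p, 17 negative and a median of -0.007. Adjusted for sex, 1 was higher with all probe sets, without dim genes, with quantile normalization, centring and the trend; medians were -0.042 (mean of probe sets), -0.040 (quantile) and -0.014 (centring), and 3 were lower after centring. For the difference of effects 1 of 71 was lower with all probe sets, 0 with the mean of probe sets, without dim genes, with the trend and with the block, and 1 was higher without dim genes. In males, lower past 1.2-fold were 1 (mean of probe sets), 2 (quantile) and 1 (centring), with 10 past 1.1-fold and 0 past 1.5-fold, and medians were -0.023 (quantile) and -0.001 (centring). The shared spread was 16.0% with quantile normalization and 12.5% after centring. The cause of these shifts was not tested.

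Leaving out each array gave, by sex, 7 to 12 lower and 0 to 1 higher at an unadjusted p under 0.05, 26 to 29 negative and medians of -0.141 to -0.110; for TP in females 0 to 3 lower, 23 to 24 negative and -0.071 to -0.053; adjusted for sex 3 to 6 lower, 0 to 1 higher, 24 to 28 negative and -0.080 to -0.047; and for the difference of effects 0 to 1 lower, 0 to 1 higher, 15 to 19 negative and -0.016 to 0.008. The last could not be fitted without either male array. With original and replica as a replicate block, 4 were lower at that p for TP in females, 6 adjusted for sex and 9 by sex, and 0 passed an adjusted p under 0.05. Deviations of original minus replica correlated at 0.11 between the treatments, and with 2 such pairs the numbers do not establish a pairing.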

Other observations

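A further probe set names Tyms together with its pseudogene Tyms-ps and entered no comparison, since its signal cannot be assigned to either. It was at 7.50 and 7.41 on the female vehicle arrays, 7.43 and 7.39 on the female TP arrays, 7.26 on the male vehicle array and 7.26 on the male TP array. Both male arrays lay below all 4 female arrays, unlike the dim probe sets that name Tyms alone.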
